A study of Citrus trifoliata with 2 samples.

Results

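Homeobox genes encode transcription factors that bind DNA through a homeodomain, and in plants they fall into families with distinct roles. KNOX proteins of class I keep cells of the shoot meristem undifferentiated and work as dimers with BEL1-type proteins, which help to bring them into the nucleus. WUSCHEL-related homeobox (WOX) proteins maintain stem cell niches. Among homeodomain-leucine zipper (HD-ZIP) proteins, class I and II are tied to water status and light, class III sets the upper side of organs and patterns the vasculature, and class IV acts in the epidermis.

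The homeobox unigenes of trifoliate orange (Citrus trifoliata), a hardy tree grown mainly to carry grafted citrus, were followed in buds of a precocious, early-flowering mutant and of its wild type. A unigene, a transcript model that can be a piece of a transcript, was taken as a member when the name of its best Swiss-Prot hit contained homeobox, homeodomain or WUSCHEL and the hit came from a flowering plant. This gave 105 of the 35775 unigenes, with 54 different hits. The rule used no measured value. The hit was an Arabidopsis thaliana protein for 85 of them, and 2 further unigenes with these words in a hit from outside the flowering plants were set aside.

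The mutant group was 1 library of the cultivar labelled precocious trifoliate orange, and the wild-type group was 1 library of the cultivar labelled normal trifoliate orange. In both, poly(A) RNA came from untreated 2-year-old trees, from the terminal bud and the 5 buds below it on spring shoots, at flower initiation, once the tips had self-pruned. The number of trees behind each library is not given in the labels. Each library mixes all tissues of those buds, so fewer cells of a type and less RNA per cell cannot be told apart, and no test between genotypes was possible. In units of 1000 reads on unigenes, the mutant library held 10037 and the wild-type library 9995. Folds are mutant over wild type, as reads per library total, with an exact 95% Clopper-Pearson interval that covers counting error only and not differences between trees.

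Markers were used to check the tissue. The 33 kept unigenes for shoot apex and young organ genes summed to 3814 mutant and 3491 wild-type reads. The 19 chlorophyll a-b binding unigenes, for leaf mesophyll, summed to 32254 and 34379 reads in the mutant and wild-type libraries, and 15 phloem unigenes to 6699 and 5900. The 3 xylem unigenes summed to 2889 mutant and 1000 wild-type reads, nearly all from Unigene5337, 1 of 3 hits to the xylem proteinase XCP1. The 5 root-patterning unigenes (SCARECROW and SHORT-ROOT hits) had 897 mutant and 744 wild-type reads. The 5 floral organ unigenes, all in the number blocks 3 and 4 described below, had only 60 mutant and 48 wild-type reads. Of these, 4 had more mutant than wild-type reads, among them the hit to APETALA 1 with 12 and 0. All 4 lie in block 3, where 86.5% of all unigenes kept were higher in the mutant library. The hit to DEFICIENS went the other way, with 14 mutant and 35 wild-type reads. It lies in block 4, where 84.1% of all unigenes kept were lower in the mutant library. The 713 kept unigenes with a fungal best hit had a median log2 ratio of 0.01.

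Most homeobox unigenes were at similar levels in both libraries. The ratio used for counting was log2((mutant RPKM + 1)/(wild-type RPKM + 1)), where RPKM is reads scaled to unigene length and library total. Unigenes with an RPKM of 1 or more in either library were kept, namely 100 of the 105 members and 34255 unigenes in all. The 5 members not kept, hits to ATHB-8, REVOLUTA, HDG2, HDG5 and STM, had at most 18 reads in a library. Of the 100, 7 were 2-fold or more above the wild-type library, against 8.61% of all unigenes kept, and 2 were 2-fold or more below it, against 5.31%. Their median log2 ratio was −0.07, beside 0.05 for all unigenes kept. Counting intervals lay wholly above 1 for 20 members, where 19.8% of all unigenes did, and wholly below 1 for 22, where 14.4% did. Of those 22, 10 belonged to the BEL1 class.

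**Figure D1:**
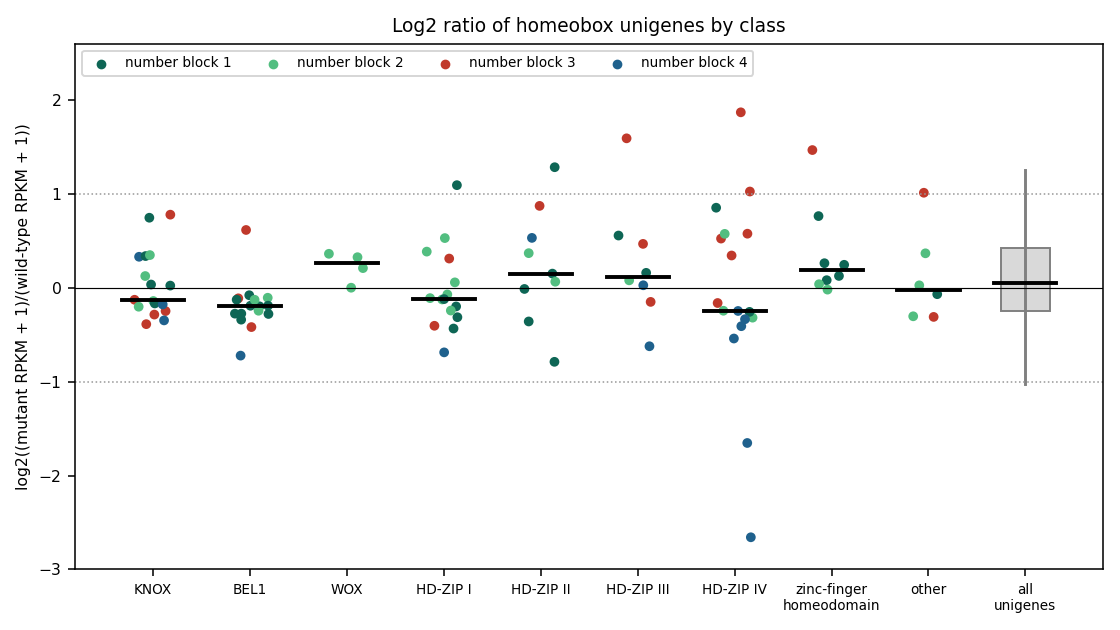
Log2 ratio of RPKM + 1, mutant over wild type, for the 100 kept homeobox unigenes by class, coloured by the block of unigene numbers each lies in. Thick lines are medians, dotted lines mark 2-fold, and the last column gives the median, the quartiles and the 5th to 95th percentile of all unigenes kept. The BEL1 points sit mostly in a narrow band just below 0, apart from BEL1 Unigene33612 (−0.72) and ATH1 Unigene20225 (0.62), and the points past 2-fold come mostly from number blocks 3 and 4.

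The place of a unigene in the table's numbering moved with its ratio. Along the numbers, unigene length rises and then drops abruptly at 3 places, which divides the table into 4 blocks. Over all unigenes kept, the median log2 ratio was 0.06 in block 1, −0.01 in block 2, 0.66 in block 3 and −0.55 in block 4. Members had medians of −0.07 over 34, 0.03 over 29, 0.34 over 23 and −0.38 over 14 in blocks 1 to 4, so the medians of blocks 3 and 4 lay on the same side as those of all unigenes there. Even so, 10 of the 23 members of block 3 were below 0, against 13.5% of all unigenes there, and 11 of the 14 of block 4 were, against 84.1%. Members of blocks 3 and 4 were thinly read, with median totals of 35 and 36.5 reads over both libraries, against 686.5 and 1155 in blocks 1 and 2. Of the 9 members past 2-fold, 7 lay in blocks 3 and 4. In blocks 1 and 2, 2 of 63 members were at least 2-fold higher, against 1.82% of all unigenes there, and 0 were at least 2-fold lower, against 0.544%. In block 3, 5 of 23 were at least 2-fold higher, against 29.3%, and 0 lower, against 0.298%, with 6 intervals above 1, against 31.3%, and 0 below, against 1.4%. In block 4, 0 of 14 were at least 2-fold higher, against 0.817%, and 2 lower, against 23%, with 0 intervals above 1, against 2.67%, and 4 below, against 25%. The part of the blocks in any single ratio was not tested, and the block is given below where a member lies in block 3 or 4.

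**Figure D2:**
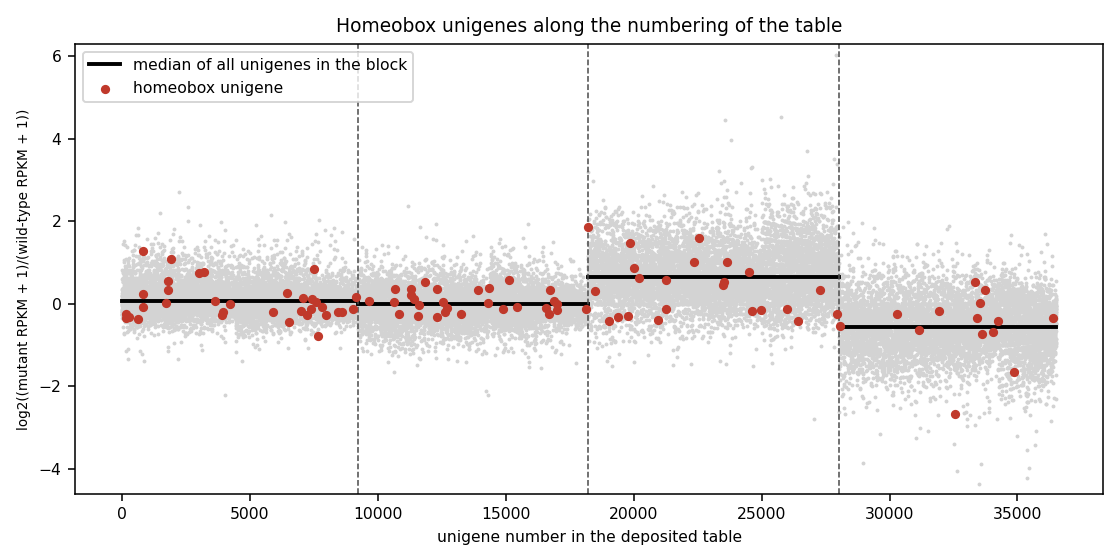
Log2 ratio of RPKM + 1, mutant over wild type, against unigene number. Grey points are all unigenes kept, red points are homeobox unigenes, black bars are block medians and dashed lines are block boundaries. The grey cloud steps up in block 3 (median 0.66) and down in block 4 (median −0.55), and the homeobox medians there lie on the same sides (0.34 and −0.38), with 10 of 23 points of block 3 below 0.

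Class I KNOX genes, the meristem maintenance group, did not move together. The unigenes closest to tomato LET6, a relative of SHOOT MERISTEMLESS (STM), were higher in the mutant library and had nearly equal folds. Unigene16751 had 947 mutant and 739 wild-type reads (149 and 117 RPKM), a fold of 1.28 (1.16 to 1.41). Unigene1820 had 232 mutant and 179 wild-type reads (13.1 and 10.2 RPKM), a fold of 1.29 (1.06 to 1.58). Both intervals lie above 1, and both unigenes are in blocks 1 and 2. Their summed reads, 1179 mutant and 918 wild-type, gave a fold of 1.28 (1.17 to 1.40).

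KNAT6, which in Arabidopsis acts with STM in the meristem and at organ boundaries, had 83 mutant and 47 wild-type reads over its 2 unigenes. Its longer match, Unigene24521, had 52 mutant and 24 wild-type reads, a fold of 2.16 (1.31 to 3.66). It lies in block 3, and with the pseudocount its log2 ratio was 0.78, short of 2-fold. Its other match, Unigene33747 of block 4, had 31 mutant and 23 wild-type reads, with an interval of 0.758 to 2.41. This unigene leaned upward in a block whose median is below 0.

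The most abundant class I unigene went the other way by a small amount. Unigene17014, closest to apple KNAP2, had 2802 mutant and 3077 wild-type reads (242 and 267 RPKM), a fold of 0.907 (0.861 to 0.955). The STM hits gave no higher reading in the mutant library either. Unigene27959 had 136 mutant and 163 wild-type reads (0.831-fold, 0.657 to 1.05, block 3), and Unigene33575, not kept, had 1 and 8 (block 4). The hit to rice OSH71, Unigene1730, had 87 mutant and 85 wild-type reads, with an interval of 0.747 to 1.39. Summed over the 7 kept class I unigenes, the libraries held 4287 mutant and 4290 wild-type reads, a fold of 0.995 (0.954 to 1.04). Unigene17014 gave most of this sum. Of the 7, 5 had a ratio above 0, where 53.8% of all unigenes kept did. Intervals lay above 1 for 3 and below 1 for 1, against 19.8% and 14.4%. The median log2 ratio was 0.33 over the 7 and 0.18 over the 4 in blocks 1 and 2.

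**Figure D3:**
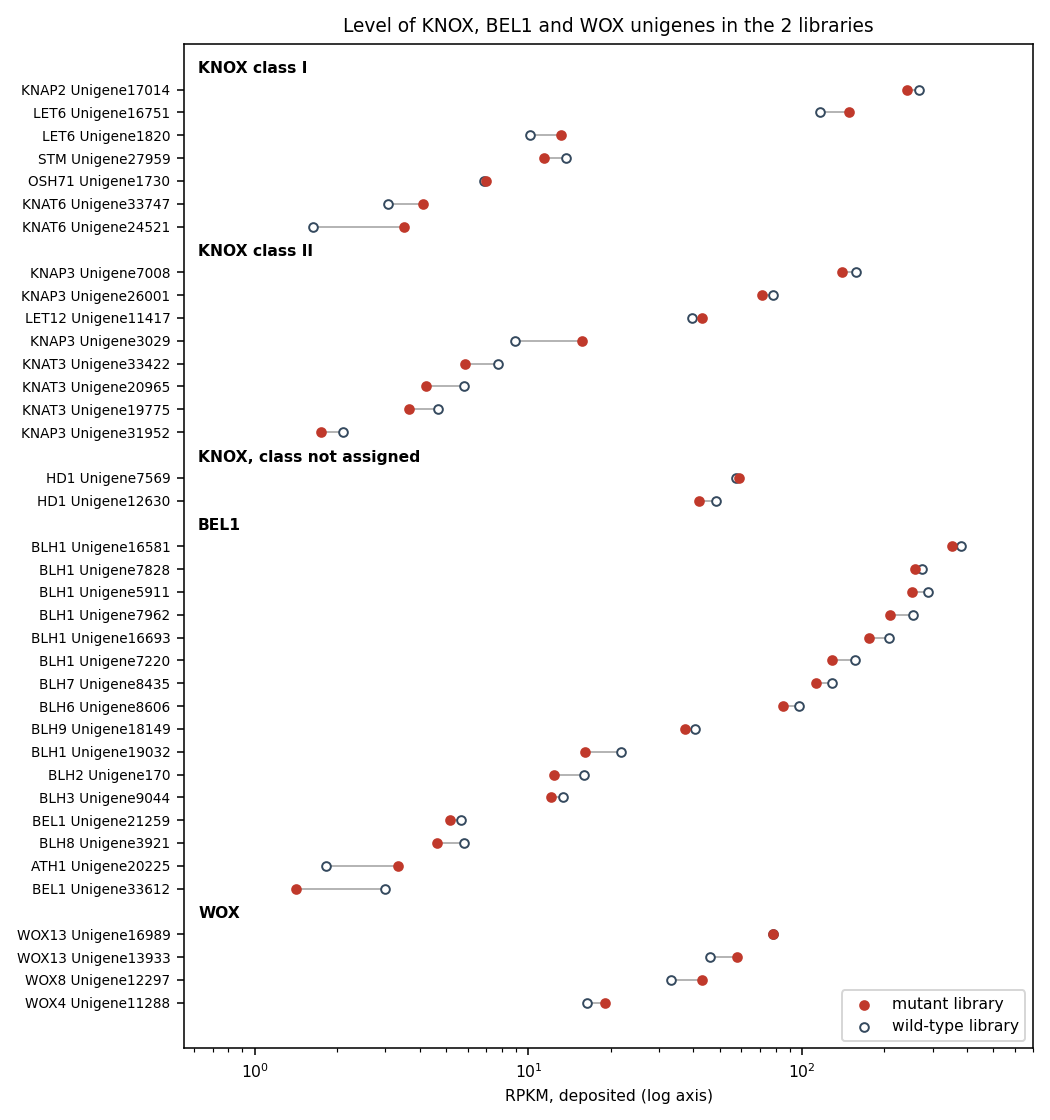
Deposited RPKM (log axis) of each kept KNOX, BEL1 and WOX unigene, filled red for the mutant library and open for the wild-type library, with the closest Swiss-Prot entry beside the unigene number. Levels span from 1.42 RPKM in the mutant library for BEL1 Unigene33612 to 382 RPKM in the wild-type library for BLH1 Unigene16581, and for nearly every unigene the symbols lie close together.

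Class II KNOX genes, which are expressed more widely in maturing tissue, showed no shared direction that held across the blocks. The apple KNAP3 hit Unigene7008 had 1428 mutant and 1597 wild-type reads, a fold of 0.890 (0.829 to 0.957). A shorter KNAP3 piece, Unigene3029, leaned the other way with 74 and 42 reads in the mutant and wild-type libraries (1.75-fold, 1.19 to 2.63). Unigenes with the same hit lay on both sides of 0 for 13 of the 27 homeobox hits that had more than 1 kept unigene. The same share over all hits was not computed, so this count is not read as a trait of homeobox genes. The tomato LET12 hit, Unigene11417, had 773 mutant and 704 wild-type reads, with an interval of 0.986 to 1.21. All 3 pieces hitting Arabidopsis KNAT3 had fewer mutant reads (11 and 16 in block 3, 16 in block 4) than wild-type reads (14, 22 and 21 in the same order), each with an interval that included 1. The piece with 11 mutant reads has a weak hit. Of the 8 class II unigenes, 6 had a ratio below 0, where 46.2% of all unigenes kept did. Of their intervals, 1 lay below 1 and 1 above, against 14.4% and 19.8% of all unigenes kept. In blocks 1 and 2, 1 of 3 was below 0 and the median log2 ratio was 0.13, against −0.17 over all 8. The 2 unigenes closest to rapeseed HD1, a KNOX protein not placed in a class here, had 523 mutant against 508 wild-type reads and 337 against 387.

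Over all 17 kept KNOX unigenes the median log2 ratio was −0.13, and over the 9 in blocks 1 and 2 it was 0.04. The sign of the KNOX median thus differed with the blocks included, and no direction is given for the family. None of the 17 reached 2-fold on the log2 scale with the pseudocount. Of all unigenes kept, 8.61% were at least 2-fold higher and 5.31% at least 2-fold lower on that scale. In blocks 1 and 2, which hold 9 of the 17, these shares were 1.82% and 0.544%.

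BEL1-type genes, partners of the KNOX proteins, lay close together, slightly lower in the mutant library. Of the 16 unigenes, 15 had a ratio below 0, where 46.2% of all unigenes kept did, and the median log2 ratio was −0.19. Intervals lay wholly below 1 for 10 of the 16, and for 0 of them above 1, against 14.4% and 19.8% of all unigenes kept. All 12 BEL1 unigenes in blocks 1 and 2 were below 0, where 46.5% of all unigenes there were, and 9 of the 12 intervals lay below 1, where 16.2% did. The class summed to 14477 mutant and 16386 wild-type reads, a fold of 0.880 (0.860 to 0.900). These counts are not independent, because 7 of the 16 unigenes share the BLH1 hit, and unigenes with 1 hit can be pieces of 1 transcript or near-identical copies.

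The BLH1 unigenes were the most abundant. BLH1 partners with KNAT3 in Arabidopsis. Unigene16581 had 2945 mutant and 3156 wild-type reads (355 and 382 RPKM), a fold of 0.929 (0.883 to 0.977). Unigene7962 had 2064 mutant and 2495 wild-type reads, a fold of 0.824 (0.777 to 0.874). All 7 were below 1, between 0.737 (Unigene19032, block 3) and 0.947, and together they held 10055 mutant and 11323 wild-type reads (0.884-fold, 0.861 to 0.908). Among the 7, Unigene7220 and Unigene19032 have weak hits.

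BLH9 and BLH8 are BEL1-type genes known from flowering. BLH9, also called PENNYWISE, acts with STM in the Arabidopsis inflorescence meristem and is needed, with BLH8 (POUND-FOOLISH), for the switch to flowering. The BLH9 hit, Unigene18149, had 1013 mutant and 1104 wild-type reads, a fold of 0.914 (0.838 to 0.996). The BLH8 hit, Unigene3921, had 128 mutant and 160 wild-type reads, a fold of 0.797 (0.626 to 1.01). The BLH8 interval included 1 with library totals but not after centring or trimmed-mean scaling.

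Most other BEL1-type members were also slightly lower. BLH2 (SAWTOOTH1), which restrains class I KNOX genes in Arabidopsis leaf margins, had 381 mutant and 488 wild-type reads (0.777-fold, 0.678 to 0.891). The folds of BLH6, a weak hit to a protein that acts on secondary walls in Arabidopsis, and of BLH7 were both 0.875, and that of BLH3 was 0.910 with an interval of 0.779 to 1.06. BEL1 itself, which specifies ovule integuments, matched 2 unigenes, and Unigene33612 was further down than the rest of the class. Unigene33612 had 40 mutant and 84 wild-type reads (0.474-fold, 0.317 to 0.699, block 4, with a log2 ratio of −0.72 that falls short of 2-fold), and Unigene21259 had 142 and 155 (interval 0.721 to 1.15, block 3). The 1 member with a ratio above 0 was the hit to ATH1, an activator of the floral repressor FLC in Arabidopsis, with 11 mutant and 6 wild-type reads (interval 0.619 to 6.01, block 3).

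Well-read unigenes in general leaned slightly the same way as BEL1. Of the unigenes in blocks 1 and 2 with at least 1000 reads over both libraries, 53.6% of 5920 had a ratio below 0 and 28.8% had an interval below 1. Of the 9 BEL1 unigenes that well read, 9 were below 0 and 8 had an interval below 1, with folds between 0.824 and 0.947. The chlorophyll a-b binding unigenes lay on the same side, with 14 of 19 below 0, a median log2 ratio of −0.13, 9 intervals below 1 and a summed fold of 0.934 (0.920 to 0.949). The part of these in the BEL1 shift was not tested.

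**Figure D4:**
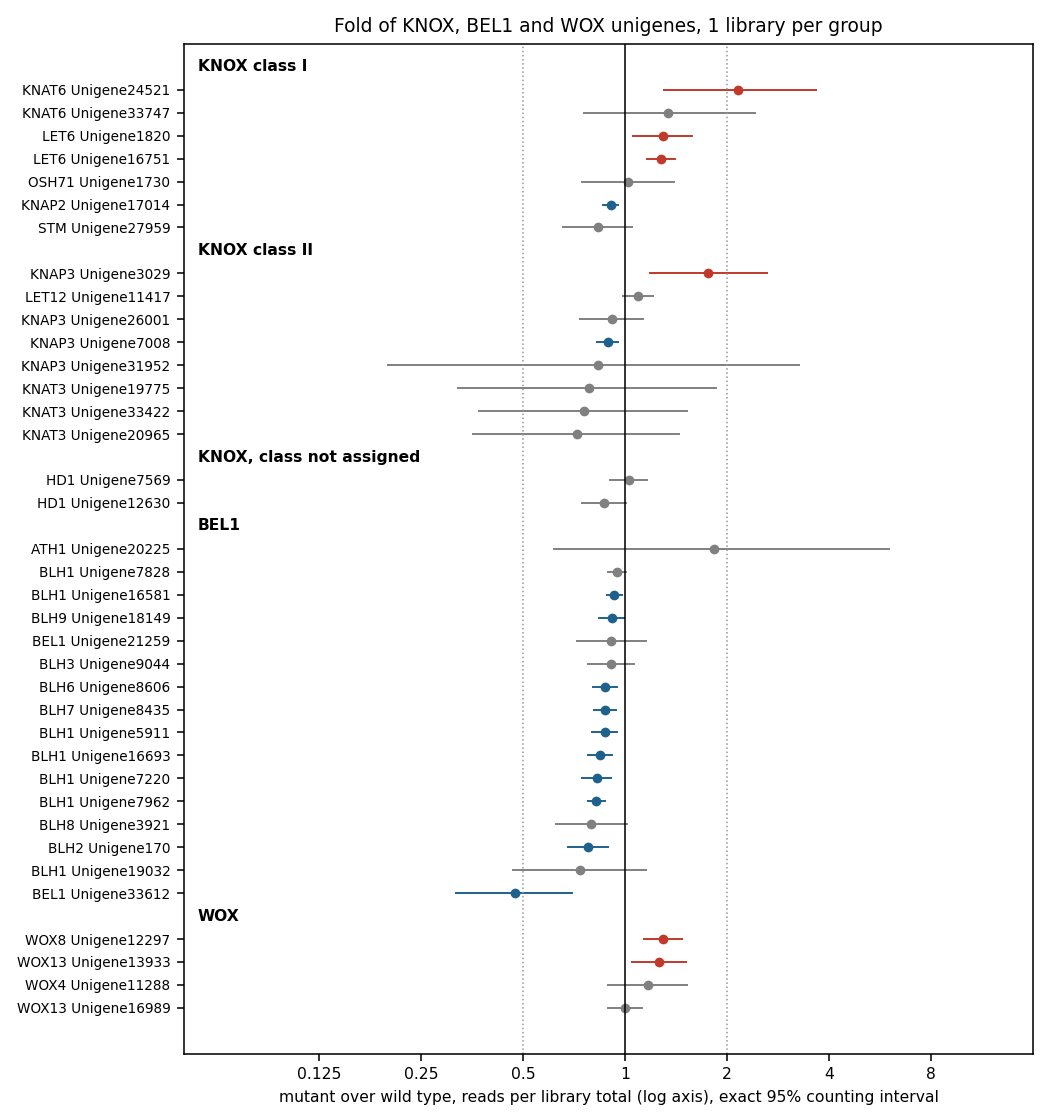
Fold (mutant over wild type, log axis) with its exact 95% counting interval for each kept KNOX, BEL1 and WOX unigene. Red marks an interval wholly above 1, blue wholly below 1 and grey an interval that includes 1, and dotted lines mark 2-fold. BEL1 has 10 blue and 0 red unigenes, WOX has 2 red of 4, and KNOX has both colours, with LET6, KNAT6 Unigene24521 and KNAP3 Unigene3029 in red and KNAP2 Unigene17014 and KNAP3 Unigene7008 in blue. Of all unigenes kept, 19.8% had an interval wholly above 1 and 14.4% wholly below 1.

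WOX genes leaned toward the mutant library. The 4 members matched WOX4, WOX8 and WOX13. The unigene closest to rice WOX8, Unigene12297, had 546 mutant and 420 wild-type reads (43.0 and 33.2 RPKM), a fold of 1.29 (1.14 to 1.47). WOX4, which maintains the cambium in Arabidopsis, had 123 mutant and 105 wild-type reads (1.17-fold, 0.892 to 1.53). WOX13, of the oldest WOX lineage, matched Unigene16989 with 579 mutant and 576 wild-type reads and Unigene13933 with 277 and 219 (1.26-fold, 1.05 to 1.51), where Unigene13933 has a weak hit. All 4 had ratios above 0 with library totals, where 53.8% of all unigenes kept did, and 3 of 4 after centring or trimmed-mean scaling. Intervals lay above 1 for 2 of the 4, against 21.1% of all unigenes in blocks 1 and 2, where all 4 lie. The summed reads of the 4, 1525 mutant and 1320 wild-type, gave a fold of 1.15 (1.07 to 1.24).

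HD-ZIP III genes, which give the upper side of organs its identity and are silenced by microRNAs of the 165/166 family, were level or higher in the mutant library in the most read unigenes, and mixed in the others. ATHB-14 (PHABULOSA), Unigene1815, had 292 mutant and 189 wild-type reads, a fold of 1.54 (1.28 to 1.86). ATHB-15 (CORONA), Unigene9143, was the most read of the class, with 1712 mutant and 1522 wild-type reads (1.12-fold, 1.04 to 1.20). The longest REVOLUTA unigene, Unigene9673 with 3351 bases, had 815 and 766 reads in the mutant and wild-type libraries, with an interval of 0.959 to 1.17.

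Short REVOLUTA pieces scattered widely around that longest unigene. Unigene22559 had 30 mutant and 7 wild-type reads (4.27-fold, 1.84 to 11.5, block 3), while Unigene31132 had 6 and 11 (block 4). ATHB-8, a vascular member, had 111 mutant and 126 wild-type reads in Unigene24971 (block 3), and Unigene32650, not kept, had 4 and 18 (block 4). The 8 kept unigenes had a median log2 ratio of 0.12, with 6 above 0 by library totals (53.8% of all unigenes kept) and 5 after centring or trimmed-mean scaling, and summed to 3015 mutant and 2664 wild-type reads (1.13-fold, 1.07 to 1.19). Xylem markers moved in the same direction through XCP1 Unigene5337, with 2880 mutant and 955 wild-type reads, whereas the other 2 XCP1 unigenes, of block 4, had 4 mutant against 33 wild-type reads (Unigene32725) and 5 against 12 (Unigene33427). Their part in the HD-ZIP III values was not tested.

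HD-ZIP II genes differed among themselves. Unigene835, closest to Arabidopsis HAT9, had 200 mutant and 74 wild-type reads (15.3 and 5.67 RPKM), a fold of 2.69 (2.05 to 3.56). On the log2(RPKM + 1) scale it was the 1 member past 2-fold in either direction among those with at least 100 reads. The other HAT9 unigene, Unigene16872, was at 677 mutant and 644 wild-type reads (interval 0.938 to 1.17), so the difference did not extend to both.

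HAT4 (ATHB-2), a shade-avoidance regulator in Arabidopsis, also differed between its 2 unigenes. Unigene7647 had 258 mutant and 449 wild-type reads (0.572-fold, 0.489 to 0.668), and Unigene4220 had 233 and 234. The hit to rice HOX11, Unigene20023, was 2.32-fold higher (1.24 to 4.58, 35 mutant and 15 wild-type reads, block 3). HAT3 leaned down and HAT14 leaned up, each with an interval that included 1. The class summed to 1976 mutant and 1941 wild-type reads, a fold close to 1 for the sum.

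HD-ZIP I genes, many of which respond to water deficit and abscisic acid, were mostly level or slightly lower. ATHB-7, induced by drought in Arabidopsis, had 181 mutant and 245 wild-type reads in Unigene6523 (0.736-fold, 0.604 to 0.895) and 221 and 238 in Unigene12697. HAT5 (ATHB-1) had 1019 mutant and 1203 wild-type reads in Unigene10844 (0.843-fold, 0.775 to 0.918). ATHB-54 had 249 mutant and 310 wild-type reads, with an interval of 0.674 to 0.948. Against these, ATHB-13, which shapes leaves and cotyledons, was higher, with 738 mutant and 559 wild-type reads (1.31-fold, 1.18 to 1.47).

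ATHB-6, a negative regulator of abscisic acid responses, gave opposite values in its unigenes. The abundant Unigene7385 had 2221 mutant and 2404 wild-type reads (0.920-fold, 0.868 to 0.975). The small Unigene1916, from a weak hit, had 60 and 25 (2.39-fold, 1.48 to 3.98). The most abundant homeobox unigene by RPKM, Unigene15442 with a weak hit to ATHB-5, stood at 527 mutant and 553 wild-type RPKM. Of the 15 members of the class, 10 had a ratio below 0, where 46.2% of all unigenes kept did, and the class summed to 7309 mutant and 7737 wild-type reads (0.941-fold, 0.911 to 0.971).

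HD-ZIP IV genes, the epidermal class, summed to 1573 mutant and 1811 wild-type reads (0.865-fold, 0.808 to 0.926), a sum to which Unigene12311 gave most. Of 17 kept, 10 had a ratio below 0, against 46.2% of all unigenes kept, and 5 intervals lay below 1 and 3 above, against 14.4% and 19.8%. ANTHOCYANINLESS 2, which acts in subepidermal and epidermal tissue of Arabidopsis, matched 3 long unigenes on both sides of 1. Unigene12311 had 989 mutant and 1235 wild-type reads (0.797-fold, 0.733 to 0.868). Unigene23548 of block 3 had 165 and 106 (1.55-fold), and Unigene28070 of block 4 had 30 and 56 (0.533-fold). Unigene23548 and Unigene28070 thus lay on the side of their block medians.

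Among the other epidermal genes, GLABRA 2, a regulator of trichomes and root hairs, had 187 mutant and 227 wild-type reads in Unigene159 (0.820-fold, interval from 0.672 to just under 1). A 225-base GLABRA 2 piece, Unigene18227, had 6 mutant and 0 wild-type reads, at least 1.99-fold higher against a floor of 3 reads per library (block 3). MERISTEM L1 (ATML1), which defines the outer cell layer, had 9 mutant and 3 wild-type reads (interval 0.746 to 17.2, block 3). HDG2, linked to stomata, had 60 and 30 mutant and wild-type reads in Unigene7508 (1.99-fold, 1.26 to 3.20). The longer Unigene34237 of block 4 went the other way, with 26 and 39 (0.664-fold, 0.388 to 1.12). Summed over the 2 kept HDG2 unigenes, 86 mutant and 69 wild-type reads gave a fold of 1.24 (0.894 to 1.73).

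On the log2(RPKM + 1) scale, the only members at least 2-fold lower in the mutant library were pieces of HDG5. Unigene32549 had 0 mutant and 12 wild-type reads, at least 4.02-fold lower against the same floor, and Unigene34851 had 1 and 8. Both are short, of 226 and 227 bases, and lie in block 4. In class IV, 2 of 17 members were at least 2-fold higher (ATML1 and the GLABRA 2 piece) and 2 lower, against 8.61% and 5.31% of all unigenes kept. These are 4 of the 9 members past 2-fold, all from blocks 3 and 4 and none with more than 12 reads in a library. In block 3, 2 of 6 class IV unigenes were higher, against 29.3% of all unigenes there. In block 4, 2 of 6 were lower, against 23%.

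**Figure D5:**
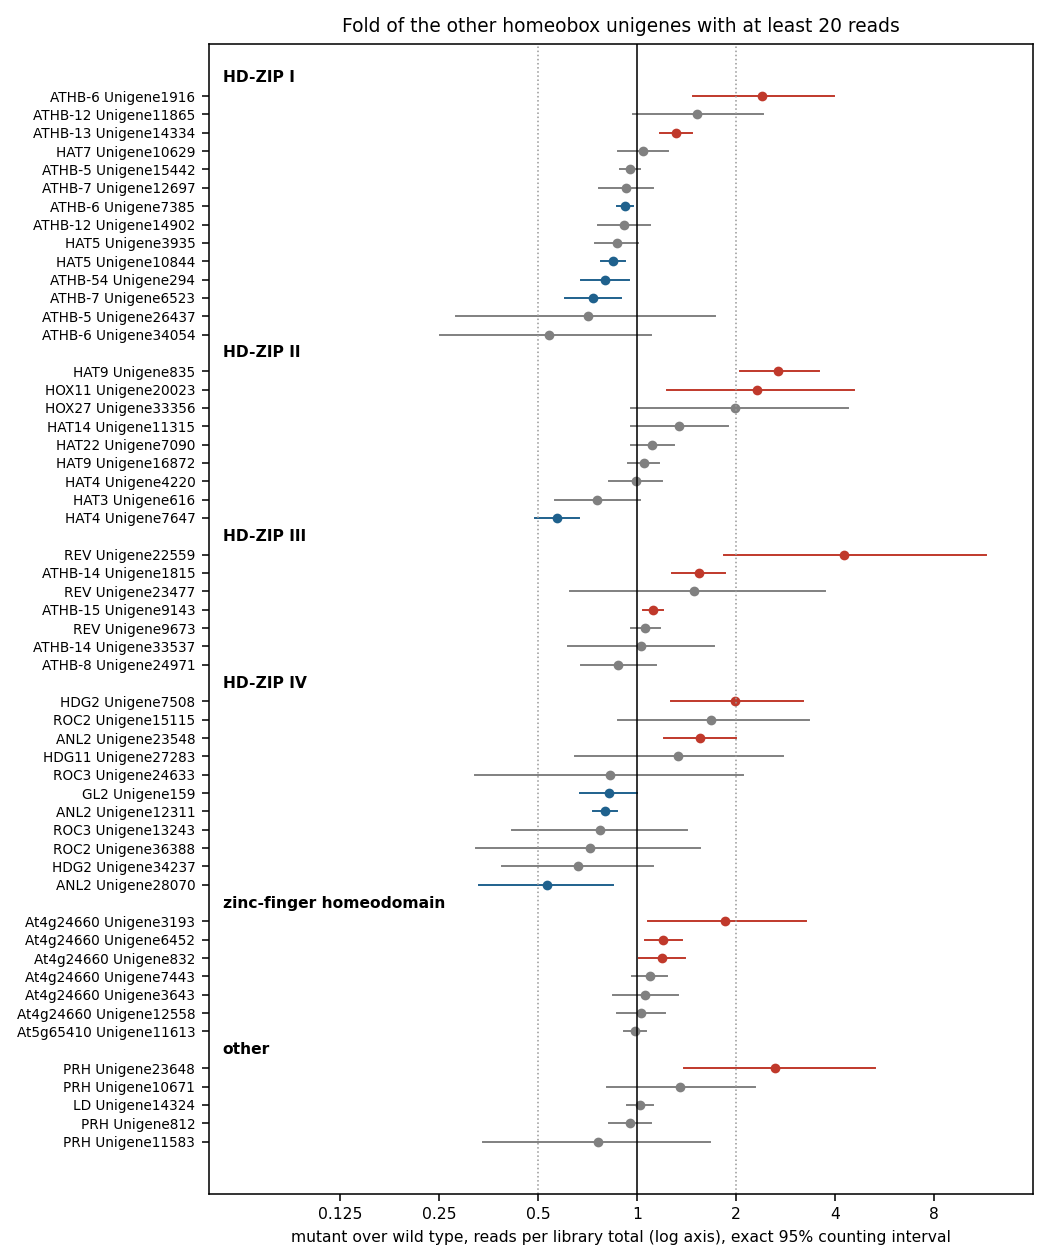
Fold (mutant over wild type, log axis) with its exact 95% counting interval for kept HD-ZIP, zinc-finger homeodomain and other homeobox unigenes with at least 20 reads over both libraries. Colours are as in the plot of KNOX, BEL1 and WOX folds. HAT9 Unigene835 (2.69) and HAT4 Unigene7647 (0.572) stand out in HD-ZIP II, and by library totals the zinc-finger homeodomain unigenes shown lie above 1 except At5g65410 Unigene11613 (0.987), where 1 fewer does after centring or trimmed-mean scaling.

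Zinc-finger homeodomain genes, a plant-specific family, were level or slightly higher in the mutant library. The 6 unigenes closest to At4g24660 all had folds above 1 by library totals, between 1.03 and 1.86 (1 fewer after centring or trimmed-mean scaling), and together held 1912 mutant and 1676 wild-type reads (1.14-fold, 1.06 to 1.21). Unigene6452 had 540 mutant and 447 wild-type reads, a fold of 1.20 (1.06 to 1.37). The main At5g65410 unigene, Unigene11613, was at 1417 and 1430 reads in the mutant and wild-type libraries, and a 238-base piece, Unigene19848, had 7 and 1 (6.97-fold, 0.896 to 314, block 3). Of the 8, 7 had ratios above 0 with library totals, where 53.8% of all unigenes kept did, and 6 after centring or trimmed-mean scaling.

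Of the remaining members, LUMINIDEPENDENS, a homeodomain protein of the autonomous flowering pathway, was level, with 950 mutant and 928 wild-type reads (1.02-fold, 0.930 to 1.12). The pathogenesis-related homeodomain protein, known from parsley for binding a defence gene promoter, matched 5 unigenes. The longest, Unigene812, had 356 mutant and 373 wild-type reads, and Unigene23648 had 37 and 14 (2.63-fold, 1.39 to 5.27, block 3). The most read match was therefore level.

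Genes that act with the homeobox factors were listed by name. The list of KNOX and BEL1 partners and regulators was mainly LOB domain hits. Of its 27 kept unigenes, 18 were LOB domain hits, 5 YABBY and 4 AS1, and many LOB domain proteins, such as LBD37, LBD38 and LBD39 of nitrogen responses, are not known as KNOX regulators. Of the 27, 4 were at least 2-fold higher and 1 was at least 2-fold lower, against 8.61% and 5.31% of all unigenes kept, and 3 of the 4 and the 1 lay in blocks 3 and 4. Intervals lay above 1 for 15 and below 1 for 2, where 19.8% and 14.4% of all unigenes kept did, and 10 of the 15 were LOB domain hits, 3 AS1 and 2 YABBY. Their median log2 ratio was 0.53, both over all 27 and over the 19 in blocks 1 and 2, where the median of all unigenes was 0.02. AS1, which represses class I KNOX genes in Arabidopsis leaves, matched 4 kept unigenes. The most read, Unigene2354, had 563 mutant and 368 wild-type reads (1.52-fold, 1.33 to 1.74). Unigene4188 had 147 and 58 (2.52-fold, 1.85 to 3.48) and Unigene7055 had 69 and 36 (1.91-fold, 1.26 to 2.94). Unigene29500 of block 4 had 8 and 6, with an interval of 0.404 to 4.64. LBD11, a LOB domain protein, had 86 mutant and 26 wild-type reads in Unigene27956 (3.29-fold, 2.10 to 5.32, block 3) but 0 and 12 in Unigene33908 (block 4). Shoot apex markers, which share YABBY hits with this list, had a median log2 ratio of 0.43 over 33 unigenes, 17 of them CLAVATA1 hits. The median over the 13 in blocks 1 and 2 was −0.00, but single markers there differed. The AINTEGUMENTA (ANT) hit Unigene9678 had 357 mutant and 182 wild-type reads (1.95-fold, 1.63 to 2.35). The YABBY 2 hit Unigene13917 had 146 and 212 (0.686-fold, 0.552 to 0.851). Of the 33 intervals, 11 lay above 1 and 3 below, against 19.8% and 14.4% of all unigenes kept. The part of these markers in the values of the list was not tested.

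The 15 gibberellin oxidase unigenes, of families that class I KNOX proteins control in Arabidopsis, tobacco or maize, went both ways. Of these, 2 were at least 2-fold higher and 4 at least 2-fold lower, against 8.61% and 5.31% of all unigenes kept, with a median log2 ratio of −0.16. Blocks 3 and 4 held 1 of the 2 and 2 of the 4. A gibberellin 20 oxidase 1 unigene, of a synthesis enzyme that class I KNOX proteins repress, had 53 mutant and 127 wild-type reads (0.416-fold, 0.296 to 0.577, Unigene13578). The other gibberellin 20 oxidase unigenes had intervals that included 1. Of the gibberellin 3-oxidase hits, also synthesis enzymes, Unigene13436 had 217 mutant and 163 wild-type reads (1.33-fold, 1.08 to 1.63), and Unigene30145 of block 4 had 1 and 5. A gibberellin 2-oxidase 1 unigene, of an inactivating enzyme, had 60 mutant and 24 wild-type reads (2.49-fold, 1.53 to 4.18, Unigene1165), whereas a gibberellin 2-oxidase 8 unigene had 18 and 44 (0.407-fold, 0.222 to 0.720, Unigene16829).

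The 25 kept unigenes listed by name for the WUSCHEL and CLAVATA circuit, 17 of them CLAVATA1 hits and the rest Scarecrow-like hits, had a median log2 ratio of 0.06. The 17 share 1 best hit, and how many of them are CLAVATA1 itself rather than other receptor kinases was not tested. Of the 25, 1 passed 2-fold upward and 2 downward, against 8.61% and 5.31% of all unigenes kept, all 3 in blocks 3 and 4. Among regulators of HD-ZIP III genes, PINHEAD, the argonaute that holds microRNA165/166 away from its targets in Arabidopsis, had 1563 mutant and 1148 wild-type reads (1.36-fold, 1.26 to 1.46). The 3 unigenes closest to Arabidopsis AGO1 lay between 0.887-fold and 1.07-fold. Of the 5 kept regulators, 0 passed 2-fold upward and 0 downward, against the same 8.61% and 5.31%. Of 6 unigenes of 3 epidermal genes listed with HD-ZIP IV (TTG1, GLABRA 3 and 4 CRINKLY4 hits), 1 was at least 2-fold higher and 0 were lower, also against 8.61% and 5.31%. The 1 was a CRINKLY4 hit with 51 mutant and 21 wild-type reads (2.42-fold, 1.43 to 4.23), and 2 of the 4 CRINKLY4 hits had a ratio above 0.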

How the data were processed

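Per the file headers, the authors deposited raw read counts per unigene, RPKM values, unigene lengths and best hits. The header totals equalled the sums of the deposited counts, and 100% of the deposited RPKM values were recomputed from counts, lengths and totals within 1e-04. Deposited lengths and Swiss-Prot E-values were used as given, and a hit with an E-value above 1e-10 is called weak. For assembler, aligner, counting tool, strand and genome build: not given in the sources used here. Reads of near-identical copies may be split between unigenes, and no genome positions were used.

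Members and lists were chosen with earlier results of these data known. Groups came from the source names in the labels. Classes were assigned from the hit names. With 1 library per group no count model was fitted; members were counted past 2-fold on log2(RPKM + 1), at an RPKM of at least 1 in at least 1 library, and folds came from raw counts. Where a library had 0 reads, a floor of 3 reads was used. Named by rule were all kept KNOX, BEL1 and WOX unigenes and, elsewhere, those past 2-fold, those with an interval excluding 1 and the 2 most read per class (71 in all), plus up to 4 per gene list with at least 20 reads. Members outside it (HAT3, HAT14, ATHB-8, Unigene12697, Unigene4220, Unigene31132, Unigene33575, Unigene34237, with Unigene33908, Unigene33427, Unigene2354 and Unigene29500 of the lists) were named after their values were seen. So were the APETALA 1 hit and Unigene13917 among the markers and Unigene13436 and Unigene30145 among the gibberellin oxidases. Number blocks were found from length alone (window of 200 unigenes). The interval script was tested on simulated read counts. The block script was run on the deposited lengths only and was not tested on simulated data. Python 3.11.15, pandas 2.3.3, numpy 2.4.6 and scipy 1.17.1 were used. Alternatives were other pseudocounts, minima, scalings and subsets, described with their effect in the closing section.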

Additional observations from a re-analysis of the deposited data

How the results depend on the processing

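The count of homeobox unigenes at least 2-fold higher, 7 as reported, was 0 with a pseudocount of 5, 3 with a minimum RPKM of 5, 1 with at least 100 reads, 3 with at least 500 bases, 3 with the longest unigene per entry, 2 in the first 2 number blocks, 0 at 4-fold and 20 by counting intervals. The count at least 2-fold lower, 2 as reported, was 1, 1, 0, 0, 1, 0, 1 and 22 in the same order. The median of all members stayed below 0 under the 11 alternatives run, between −0.12 and −0.01. Each class median stayed within the 95% order-statistic interval of its reported value over the members (their range where fewer than 6). That interval treats the unigenes of a class as independent, and a median over part of a class cannot leave the range of the class. Staying within it therefore does not show that a median is stable. The BEL1 median stayed between −0.24 and −0.18 and the WOX median between 0.21 and 0.28, whereas the KNOX median ranged from −0.17 to 0.04, the HD-ZIP IV median from −0.29 to 0.04 and that of the remaining members from −0.07 to 0.20. The HD-ZIP IV median turned positive only with a minimum RPKM of 5, which left 6 unigenes. Under centring and under trimmed-mean scaling, 66 of the 71 named folds still had an interval that excluded or included 1 as reported, 4 came to exclude 1 (Unigene3921, Unigene7828, Unigene12630 and Unigene15442), 1 no longer did (Unigene832), and 0 with an interval excluding 1 turned round. No paired analysis was possible because each group holds 1 library, and no replicate could be left out. Depth limits the thinly read members: Unigene19848, with 7 mutant and 1 wild-type reads, had an interval of 0.896 to 314.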
